A study of Mus musculus with 32 samples.

Results

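Of 12393 measured genes, 10 whose levels differed between animals and agreed between the brain regions of an animal are described here animal by animal. They were Prdx2, Nfia, Pygb, Fam32a, Gnb1, Vldlr, Gdpd3, Cap1, Sfxn1 and H1f2, and they were read by 23 of the 22626 probe sets tested. They had been chosen because the deviation of an animal's array from its group mean agreed between its medulla and its midbrain. That agreement is therefore a description here and carries no test. Levels of messenger RNA were measured with Affymetrix short-oligonucleotide arrays in 16 mice, on 1 midbrain and 1 medulla array each (32 arrays). The tested mice lacked Cckbr, the cholecystokinin B receptor (KO), and were set against control mice. In each genotype 4 mice had chronic constriction injury of a nerve (CCI), a model of neuropathic pain, and 4 had a sham operation. The labels used here give no strain, age or sex and no description of how the mutant was made.

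The 10 genes belong to no single pathway. Gnb1 encodes a beta subunit of heterotrimeric G proteins, and Vldlr encodes a receptor for reelin and for apolipoprotein E-bearing lipoproteins, which guides neuronal migration. Cap1 recycles actin together with cofilin. Nfia is a transcription factor of glial differentiation, H1f2 a linker histone, and Fam32a in human cells a protein of the spliceosome. Prdx2 reduces hydrogen peroxide in neurons and red blood cells, Pygb is the brain form of glycogen phosphorylase, Sfxn1 carries serine into mitochondria, and Gdpd3 is a lysophospholipase D. A probe set of such an array reads the stretch of transcript that its probes hit, so separate probe sets of 1 gene can read separate transcripts or parts of one.

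Array medians lay between 91 and 99.9 intensity units. The regions carried their markers: 8 measured medulla genes, mostly of the Hox family, summed to 117 to 214 units in midbrain and 958 to 2094 units in medulla, and 9 midbrain genes summed to 1289 to 1745 units in midbrain and 329 to 552 units in medulla. The brighter Cckbr probe set read at most 24.1 units in KO animals and at least 122 units in control animals over both regions. The Y-linked gene Eif2s3y read 120 to 208 units on all 32 arrays, so sex gave no check of which arrays share an animal. Arrays were placed with an animal by odd and next even array number. For KO sham 3 and KO sham 4 the title numbers pair the arrays the other way round, and animals are named here by the title number of the medulla array. The midbrain array of KO sham 2 stood apart in its 3' to 5' ratio of Actb, a sign of RNA quality, at 1.60 on the log2 scale, where the other 31 arrays lay between 0.36 and 0.78.

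The agreement that chose the genes was measured as the Pearson r, over 16 animals, of the midbrain and medulla deviations from the group means on the log2 scale. The best probe set of each gene, here its lead probe set, had r between 0.946 (H1f2) and 0.988 (Prdx2), with a median of 0.977. Over the 22581 probe sets with any spread the median was 0.253, and the middle 50% of them lay between -0.002 and 0.486. The 10 lead probe sets were among 24 (0.106%) with an r at least that of H1f2. Just inside this limit were Alas2, Ube2d3 and Tle5 at 0.947 to 0.948, and just outside it Slco1b2, Sh3gl3 and Sdc4 at 0.945 to 0.943. Whole arrays were described by another measure, the r of an animal's paired arrays across probe sets. With the 10 genes left out, it averaged 0.168 and ran from -0.058 to 0.360. It is a description, since probe sets are not independent, and it cannot be set against an r over animals.

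**Figure D1:**
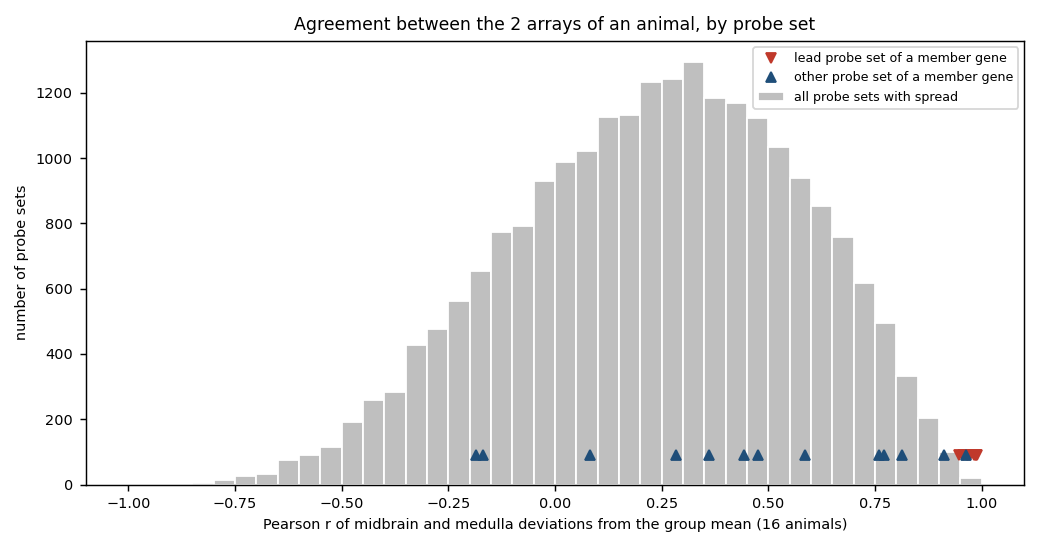
Number of probe sets (y axis) by the Pearson r of midbrain and medulla deviations from the group mean over 16 animals (x axis). Grey bars stand for all 22581 probe sets with spread, red triangles for the 10 lead probe sets, at 0.946 to 0.988, and blue triangles for the 13 other probe sets of these genes, whose median was 0.476.

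The 10 genes also varied more between animals than most. The SD between animals of the lead probe sets, averaged over an animal's arrays, was 0.62 at the median on the log2 scale (0.36 for H1f2 to 1.11 for Cap1), against 0.16 at the median of all probe sets. For 9 of the 10, the widest gap in the ordered levels placed the same animals above it in both regions, Sfxn1 being the exception. That widest gap ran from 0.38 (Sfxn1) to 1.98 (Prdx2) on the log2 scale, against 0.14 at the median of all probe sets. A rule based on agreement favours probe sets with wide spread, so these values are descriptions too.

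**Figure D2:**
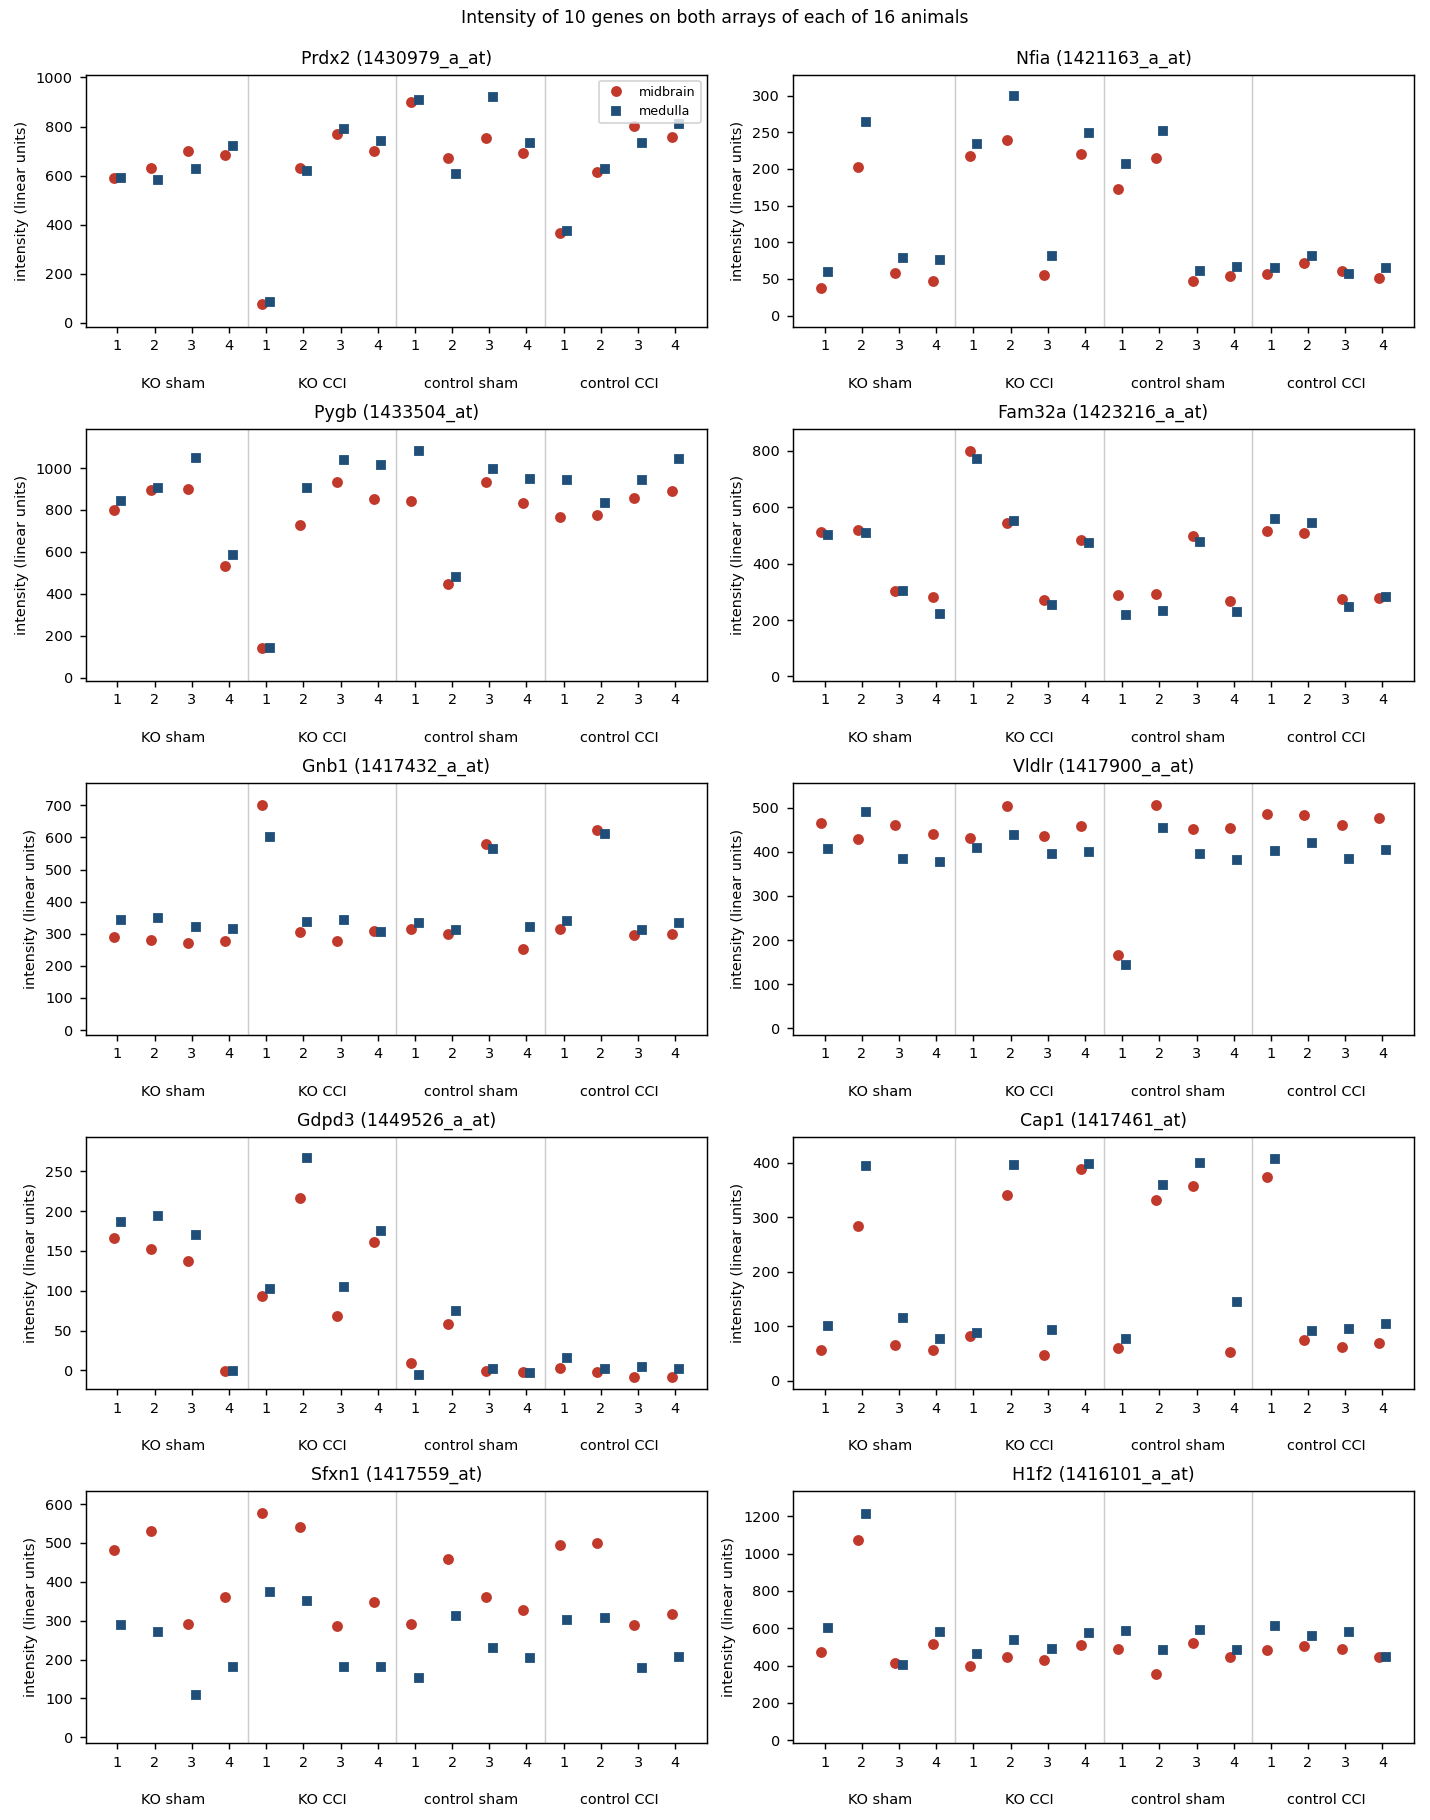
Deposited intensity (y axis, linear units) of the lead probe set of each gene in each of 16 animals (x axis), with midbrain as red circles and medulla as blue squares. Nfia, Fam32a, Gnb1 and Cap1 form separate upper and lower levels, Prdx2, Pygb, Vldlr and H1f2 have 1 animal far from the others, and Sfxn1 is higher in midbrain in all 16 animals.

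Among signalling genes, Gnb1 had 2 levels. Its lead probe set read 700 units in midbrain and 600 units in medulla of KO CCI 1. It read 623 and 609 units in control CCI 2, and 578 and 563 units in control sham 3. The other 13 animals read 253 to 315 units in midbrain and 304 to 349 units in medulla. No animal fell between the levels in either region, and the 3 high animals came from 3 different groups. A gap of this size (0.76 on the log2 scale) or more was found in 0.623% of all probe sets. Of the 2 other Gnb1 probe sets, the brighter correlated with the lead at 0.597 over 16 animals and paired between regions at 0.476, or at 0.817 without KO sham 2. The dimmer read at most 28.4 units and paired at -0.169.

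Vldlr had 1 animal apart. Control sham 1 read 166 units in midbrain and 144 units in medulla, where the other 15 animals read 429 to 506 units in midbrain and 377 to 490 units in medulla. A second, brighter probe set read 530 and 428 units in that animal, and 1096 to 1526 units and 964 to 1273 units in the others. The remaining Vldlr probe sets were dimmer, averaging 82.4 and 34.7 units in midbrain and 77.9 and 28.1 units in medulla. They paired at 0.285 and 0.442. In medulla control sham 1 lay below their widest gap with KO sham 4 and with KO sham 3, respectively. In midbrain it lay above the widest gap on both. The pairing of the lead probe set rested on control sham 1: r was 0.972 with it and 0.616 without it. Control sham 1 was also the single animal with the lowest array code. This number in the array descriptions, which may mark a batch, has 3 values: the lowest in 1 animal, the middle one in 7 and the highest in 8. For Vldlr, code and animal cannot be told apart.

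Cap1, the actin gene, had an upper level in 6 animals and a lower level in 10. In midbrain the upper animals read 284 units (KO sham 2), 340 and 389 units (KO CCI 2 and 4), 332 and 357 units (control sham 2 and 3) and 375 units (control CCI 1), and the lower animals 46.5 to 81.5 units. In medulla the upper animals read 358 to 407 units and the lower animals 76.2 to 144 units. Its second probe set correlated with the lead at 0.980 over 16 animals and paired between regions at 0.912. In medulla it placed the same 6 animals above its widest gap. In midbrain it placed only 5 there, without KO sham 2, and KO sham animals read at most 108 units. The midbrain array of KO sham 2 is the one with the outlying Actb ratio, whose part in this was not tested. On the lead probe set, KO and control animals held the upper level equally often, in 3 of 8 each.

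Nfia, the first of the nuclear genes, was likewise split into 6 and 10 animals, although not the same 6. Midbrain levels were 202 units in KO sham 2, 217, 239 and 220 units in KO CCI 1, 2 and 4, and 173 and 215 units in control sham 1 and 2. The other 10 animals read 37.8 to 71.1 units. In medulla the upper animals read 207 to 299 units and the lower animals 56.8 to 81.3 units. The upper level was held by 4 of 8 KO animals and 2 of 8 control animals, and by none of the 4 control CCI animals. The 2 other Nfia probe sets were dim, with means of 15.8 to 26.4 units, and paired at 0.361 and 0.082.

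Fam32a was split into 8 and 8 animals by its widest gap. Its second gap was not much narrower, at 0.50 against 0.66 on the log2 scale. Its lead probe set read 484 to 798 units in midbrain and 474 to 771 units in medulla of 8 animals, and 268 to 303 units in midbrain and 218 to 305 units in medulla of the other 8. KO CCI 1 was the highest in both regions. A second probe set ordered the animals alike (r 0.956 with the lead over 16 animals) across a much narrower range of 673 to 912 units in midbrain and 579 to 844 units in medulla. Its SD between animals was 0.13 on the log2 scale, against 0.54 for the lead.

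H1f2 had 1 animal apart, KO sham 2, at 1075 units in midbrain and 1214 units in medulla. The other 15 animals read 356 to 520 units in midbrain and 402 to 615 units in medulla. The second of its bright probe sets read 1389 and 1353 units in KO sham 2 and at most 619 and 739 units elsewhere. Without KO sham 2 the pairing of the lead was 0.803, against 0.946 with it. In midbrain the deviations of H1f2 moved with the Actb ratio at r 0.877 and with the summed neuron markers at -0.795, and in medulla at -0.405 and 0.145, all over 16 arrays. It also moved with astrocyte, oligodendrocyte and endothelial markers in midbrain (0.748, 0.652 and 0.643), and in medulla these values were -0.235, 0.385 and -0.531. The midbrain values rested on KO sham 2: without it they were 0.185 for the Actb ratio, -0.176 for neurons, 0.251 for astrocytes, 0.162 for oligodendrocytes and 0.001 for endothelium. All 8 listed neuron genes were measured, and they summed to 13139 to 17230 units in midbrain and 15757 to 18313 units in medulla. The medulla array of KO sham 2, on which H1f2 was as high, had an Actb ratio of 0.48 and lay within the range of the other arrays.

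Among metabolic genes, Prdx2 and Pygb were lowest in the same animal. The lead probe set of Prdx2 read 78.6 units in midbrain and 84.9 units in medulla of KO CCI 1, then 368 and 376 units in control CCI 1, and 592 to 901 units and 584 to 920 units in the other 14. Pygb read 142 and 139 units in KO CCI 1, 449 and 478 units in control sham 2, 530 and 584 units in KO sham 4, and 729 to 934 units and 833 to 1080 units in the other 13. Both genes thus had more than 1 step, and beyond KO CCI 1 their low animals differed. Without KO CCI 1 the pairing was 0.921 for Prdx2 and 0.931 for Pygb. The summed red blood cell markers, a possible source of Prdx2, correlated with its deviations at 0.176 in midbrain and 0.356 in medulla. Only 2 of the 5 listed markers entered this sum, which ran from 166 to 526 units in midbrain and 207 to 1291 units in medulla. A globin probe set annotated to both Hba-a1 and Hba-a2 was not in it. That probe set averaged 11.8 on the normalized log2 scale and paired between regions at 0.959. The sum thus leaves out a bright red blood cell signal, and the part of red blood cells in the result was not tested. Other measures correlated more with Prdx2. In medulla these were the choroid plexus markers (0.499), the Actb ratio (0.411) and the midbrain markers (0.398), with 0.131, 0.221 and -0.219 in midbrain. In midbrain the astrocyte markers were highest at 0.461, with 0.049 in medulla. The part of these measures was not tested either.

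The second bright probe set of Prdx2 did not follow the first. In KO CCI 1, where the lead was lowest, it read 1839 units in midbrain and 2000 units in medulla, the highest value of either region. The other 15 animals read 1403 to 1738 units in midbrain and 1394 to 1954 units in medulla. Over 16 animals the probe sets correlated at -0.694, and without KO CCI 1 at -0.297. So 1 animal carried most of this opposition, and the SD of the second probe set was 0.10 on the log2 scale, against 0.77 for the lead.

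Gdpd3, the lipid enzyme, was near background in most control animals and above it in most KO animals. In midbrain it read 166, 152, 137 and -1.31 units in KO sham 1 to 4, 93.9, 217, 67.9 and 161 units in KO CCI 1 to 4, 9.52, 57.8, -0.774 and -1.37 units in control sham 1 to 4, and 3.51, -2.34, -8.27 and -7.71 units in control CCI 1 to 4. In medulla the values were 186, 194, 169 and -0.127 units in KO sham, 102, 266, 105 and 174 units in KO CCI, -5.79, 74.8, 1.85 and -3.12 units in control sham, and 15.7, 1.77, 3.96 and 2.28 units in control CCI. One animal of each genotype went against its group in both regions: KO sham 4 was at background and control sham 2 was not. The upper level was thus held by 7 of 8 KO animals and 1 of 8 control animals.

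Gdpd3 lies on chromosome 7, as does the mutated gene Cckbr, 127 measured genes apart in the RefSeq order of GRCm38.p6. Its pairing depended on how the arrays of KO sham 3 and 4 were matched: r was 0.968 by array number and 0.174 by title number. In midbrain its deviations moved with the summed microglia markers at r 0.75 over 16 arrays, and in medulla at 0.40. In medulla they moved more with the summed neuron markers (0.697), the Actb ratio (-0.568) and the red blood cell markers (-0.558), whose values in midbrain were -0.095, 0.264 and -0.344. All 7 listed microglia genes were measured, none was at 0 on all arrays, and they summed to 2882 to 3638 units in midbrain and 2967 to 3715 units in medulla. The part of these measures in the result was not tested.

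Sfxn1, the mitochondrial carrier, followed the array code. In midbrain its lead probe set read 458 to 576 units in the 7 animals of the middle code, 285 to 361 units in the 8 of the highest code and 292 units in the single animal of the lowest code. In medulla it read 272 to 373 units, 110 to 229 units and 152 units. The middle code animals were above all others in both regions. On normalized values, 18 of the 22626 probe sets (0.0796%) kept the middle code apart from the others in both regions, 10 with it higher and 8 with it lower, and Sfxn1 was the only lead probe set among them. On the deposited values the lead probe set of Prdx2 was also apart, in the other direction and by a narrow margin: middle code animals read at most 673 units in midbrain and 626 units in medulla, and the others at least 683 and 629 units. The Actb ratio moved with the code in medulla, at 0.42 to 0.55 in the middle code and 0.56 to 0.78 in the highest, with 0.52 in the lowest. In midbrain it was 0.36 to 1.60 in the middle code, 0.57 to 0.73 in the highest and 0.46 in the lowest. The deviations of Sfxn1 correlated with this ratio at 0.210 in midbrain and -0.661 in medulla, and its part in the result was not tested.

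With deviations taken within group and array code, the pairing of Sfxn1 was 0.694, against 0.957 within groups alone. That of Vldlr was 0.308, since control sham 1 is the only animal of its code. The other 8 genes kept an r of 0.952 or more. The second Sfxn1 probe set ran the other way, with r -0.748 to the lead over 16 animals. It read 403 to 666 units in midbrain and 236 to 341 units in medulla of middle code animals, and 549 to 650 units and 359 to 442 units in highest code animals.

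**Figure D3:**
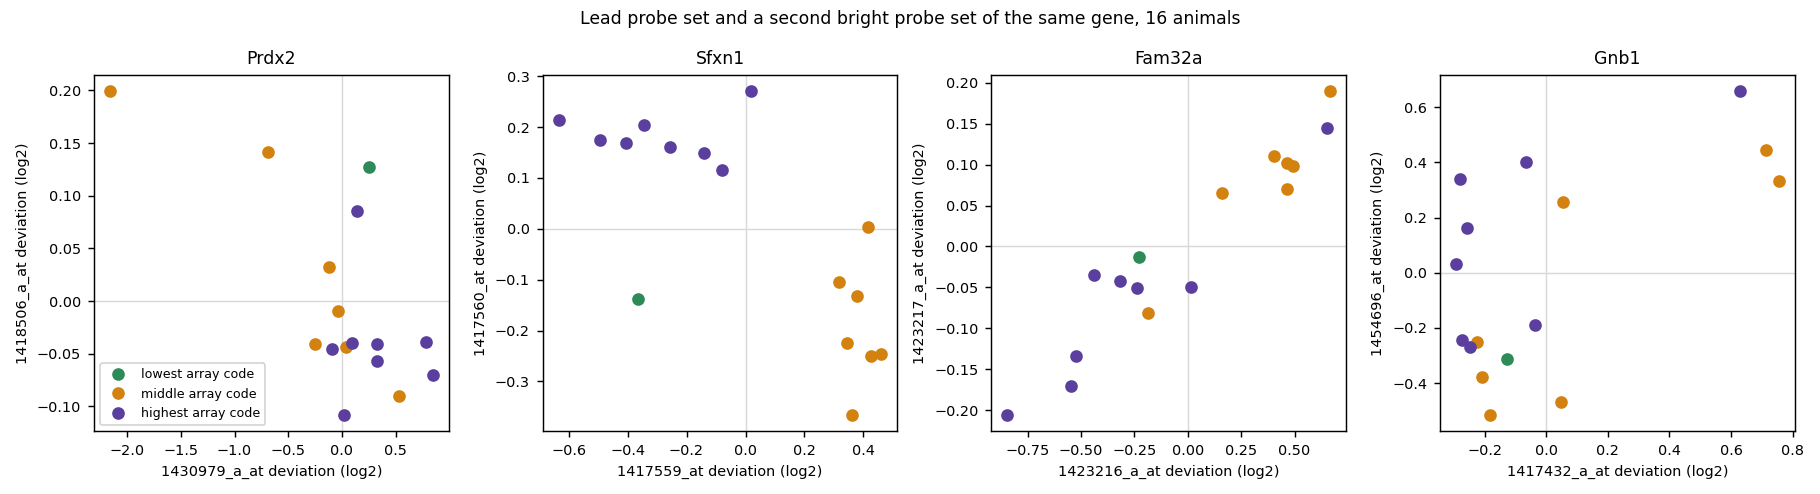
Deviation from the group mean, averaged over an animal's arrays, of a second bright probe set (y axis, log2) against that of the lead probe set (x axis, log2), for 4 genes and 16 animals coloured by array code. The points fall together for Fam32a (r 0.956), run opposite for Sfxn1 (r -0.748) with the codes apart, and for Prdx2 the opposition rests on KO CCI 1 at the upper left.

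**Figure D4:**
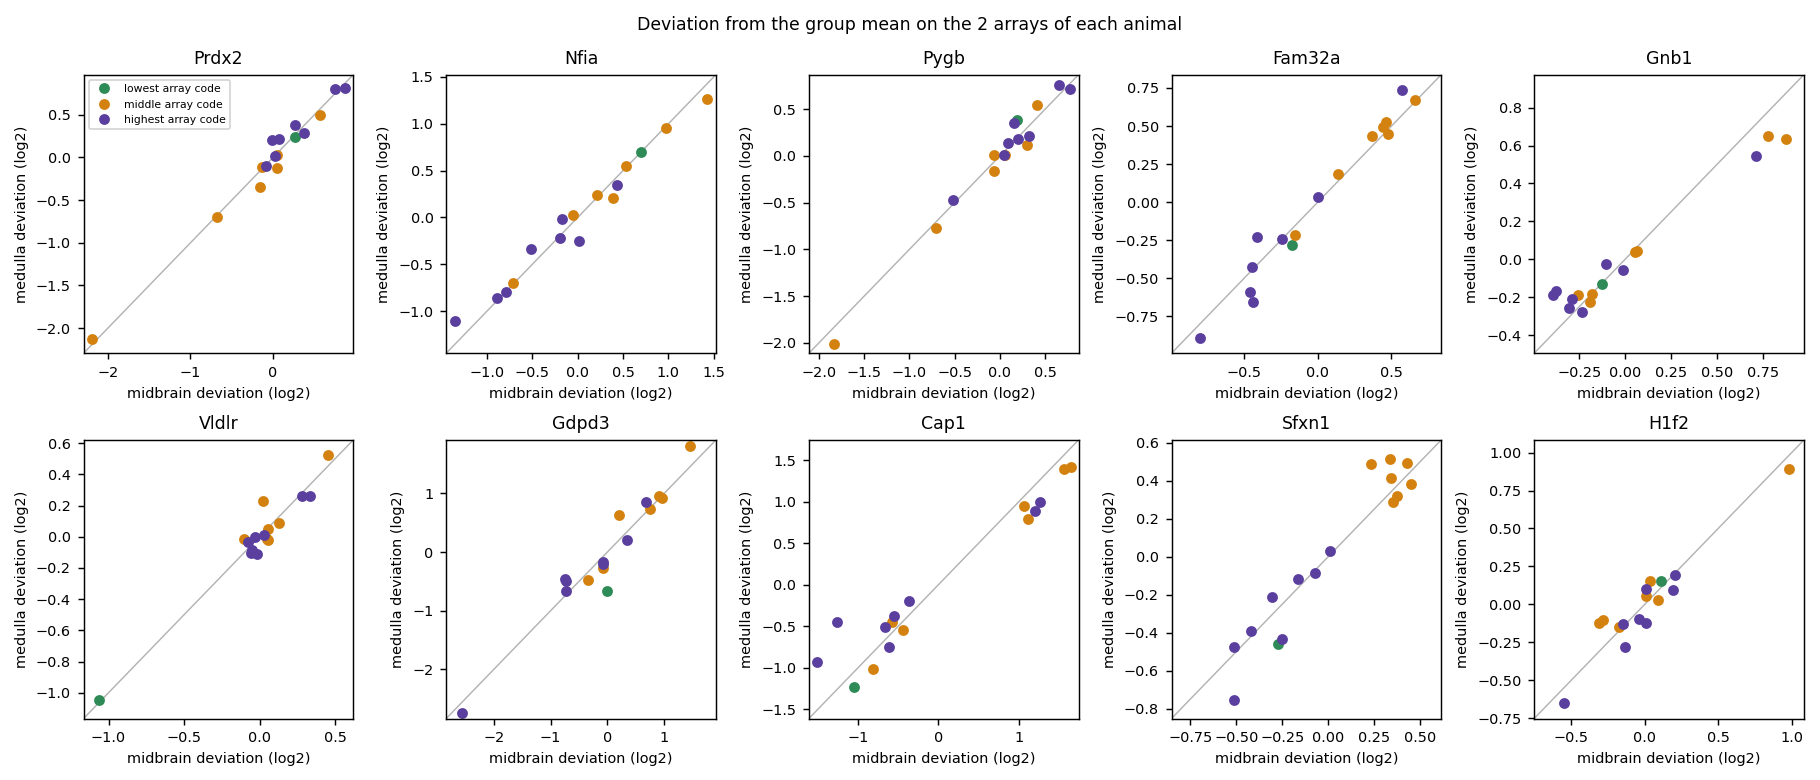
Deviation from the group mean in medulla (y axis, log2) against that in midbrain (x axis, log2) of the lead probe set of each gene, for 16 animals coloured by array code, with the line of equality. Points lie along the line in all 10 panels (r 0.946 to 0.988), as the choice of genes required, and 1 point lies far out for Prdx2, Pygb, Vldlr and H1f2.

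One animal, KO CCI 1, stood at an extreme of 4 of the genes: it was lowest for Prdx2 and Pygb and highest for Fam32a in both regions, and for Gnb1 it was highest in midbrain and second to control CCI 2 in medulla. Correlations between the genes over 16 animals reflected this. Prdx2 and Pygb correlated at 0.884, and at 0.287 without KO CCI 1. Prdx2 and Gnb1 correlated at -0.558, and at 0.060 without it. Fam32a with Sfxn1 (0.75) and with Gnb1 (0.695) gave the next largest values. Of 45 pairs of genes 5 share a chromosome, and their absolute r had a median of 0.309, against 0.312 for the other 40 pairs. Prdx2 and Fam32a, both on chromosome 8 and 66 measured genes apart, correlated at -0.556. Nfia, Cap1 and Gnb1, all on chromosome 4, correlated at 0.003 to 0.454 in absolute value.

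For each gene the 3 genes of most similar deviations over 32 arrays were taken. Of these 30, 10 (33%) lay on the chromosome of the gene they resembled, for 6 of the 10 genes, where such a chromosome held on average 5.49% of the measured genes. Near ones were Gadd45gip1, of the mitochondrial ribosome, for Prdx2 (r 0.904, 9 measured genes away), Zcchc3 for Pygb (0.917, 18 away), Samd11 for Gnb1 (0.906, 26 away) and Itgb3bp, of the kinetochore, for Nfia (0.783, 5 away). Ppt1, a lysosomal thioesterase and the measured gene next to Cap1, correlated with it at 0.730. For Vldlr, Sfxn1, H1f2 and Gdpd3 none of the 3 lay on the same chromosome. Those of Sfxn1 were Odr4, Mmut and Cnot6l (0.892 to 0.897), those of Vldlr Lysmd3, Rab6a and Elavl4 (0.918 to 0.932), those of H1f2 Odc1, Acot1 and Rcbtb2 (0.862 to 0.881), and those of Gdpd3 Zfp644, Cx3cr1 and Rpa1 (0.744 to 0.777).

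Several of these likenesses rested on 1 animal. Without KO CCI 1, Gadd45gip1 and Zcchc3 still correlated with Prdx2 and Pygb at 0.812 and 0.823, but Serinc3, listed for both, did so at -0.012 and 0.317. Without control sham 1 the 3 genes like Vldlr were at 0.418 to 0.604, and without KO sham 2 those like H1f2 at 0.374 to 0.697. In the opposite direction, Ndufs5, a subunit of respiratory complex I and 10 measured genes from Cap1, had r -0.875 with Cap1. It read 1795 to 2012 units in midbrain of the 6 animals high in Cap1 and 2248 to 2588 units in the other 10. In medulla the 6 read 2067 to 2148 units and 9 of the other 10 read 2492 to 2819 units, the exception being KO sham 3 at 1910 units. Sdc4, a membrane proteoglycan, read 2022 units in midbrain and 2262 units in medulla of KO CCI 1 and at most 443 and 425 units in the others.

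The 20 nearest measured genes of each gene were counted past an absolute r of 0.6. For Prdx2, Nfia and Cap1 it was 2 of 20, where 0.865%, 1.48% and 0.243% of all measured genes passed. For Gdpd3, Sfxn1 and H1f2 it was 1 of 20, against 1.65%, 7.37% and 2.95% of all. None passed for Pygb, Fam32a, Gnb1 and Vldlr, against 0.315%, 2.47%, 0.808% and 2.37% of all. The passing neighbours beyond those named were Wdr83 for Prdx2 (-0.657), Pgm1 for Nfia (-0.755), Ypel3, the measured gene next to Gdpd3 (-0.795), Thoc3 for Sfxn1 (0.824) and Gmnn for H1f2 (0.645). The share of all measured genes past 0.6 ran from 0.243% for Cap1 to 7.37% for Sfxn1.

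Relatives of the genes were steadier than the lead probe sets. Of 38 other genes of the same families or pathways, 28 were measured, and their SD between animals had a median of 0.12 and a maximum of 0.26 (Gnb3, which read 9.85 units on average) on the log2 scale. Their pairing had a median of 0.368. It was highest for Nfix, a relative of Nfia, at 0.927, with an SD of 0.22. Lrp1, a receptor related to Vldlr, paired at 0.817 and Sfxn3 at 0.816, while Reln, which encodes the ligand of Vldlr, paired at -0.249 and the peroxiredoxin Prdx3 at 0.165. These 28 were selected by name alone, whereas the 10 were selected by pairing, so the contrast between them follows in part from the selection. The probe sets were also chosen differently: the brightest for each of the 28, and the one of highest pairing for each of the 10.

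Genotype and operation were then compared with limma over all 22626 probe sets, with p-values adjusted by Benjamini and Hochberg and called under 0.05. None of the 23 probe sets of the 10 genes was called for genotype averaged over operation, in midbrain (background 0.0309% of probe sets called) or medulla (0.053%). At an unadjusted p under 0.05 there were 2 of 23 in midbrain, where 7.49% of all probe sets had one, and 1 of 23 in medulla, against 3.36% of all. None was called for CCI against sham in KO or in control animals or for the interaction, in either region, where the background was 0% throughout. Between 0 and 2 of 23 had an unadjusted p under 0.05 in each of these 6 comparisons, where the share of all probe sets was 2.67% to 8.23%. The log2 difference of KO over control animals for the 10 lead probe sets had a median of 0.12 in midbrain and 0.04 in medulla, against -0.008 and -0.003 over all probe sets. Such wide spread between animals leaves wide errors, with a median SE of 0.27 in midbrain and 0.30 in medulla.

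Gdpd3 had the largest difference between genotypes of the 10. In midbrain it averaged 114 ± 77.5 units in KO sham and 135 ± 67.1 units in KO CCI animals, against 16.3 ± 28.1 units in control sham and -3.70 ± 5.5 units in control CCI animals (SD, n = 4 each). In medulla it averaged 137 ± 92.2 and 162 ± 77.2 units in KO sham and KO CCI animals, against 16.9 ± 38.7 and 5.92 ± 6.57 units in control sham and control CCI animals (SD, n = 4 each). On the log2(value + 16) scale the difference was 2.43 in midbrain (SE 0.48, 95% interval 1.41 to 3.45, limma adjusted p = 0.138) and 2.52 in medulla (SE 0.52, 1.42 to 3.62, limma adjusted p = 0.203). It did not pass the threshold. Without the arrays of KO sham 4, of which the midbrain one is titled as replicate 3, the limma adjusted p was 0.00156 in midbrain and 0.00233 in medulla, so these arrays decided the call. Within the middle array code the difference was 2.24 in midbrain and 2.05 in medulla, and within the highest it was 2.26 and 2.36, all short of the threshold (limma adjusted p 0.348 or more). Its size also depended on the constant added before the logarithm, from 1.29 with 64 to 4.76 with 1 in midbrain.

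For Nfia the genotype by CCI interaction was 1.64 in midbrain (95% interval 0.04 to 3.25, limma adjusted p = 0.822) and 1.65 in medulla (0.20 to 3.09, limma adjusted p = 1.0), which did not pass. The values behind it were the 3 of 4 KO CCI animals and 0 of 4 control CCI animals on the upper level, against 1 of 4 KO sham and 2 of 4 control sham animals.

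Between the regions, 3 of the 23 probe sets were called at 8 group means over 32 arrays (13%, against a background of 21.5%). This fit takes both arrays of an animal as independent and so ignores the pairing. Sfxn1 was higher in midbrain by 0.74 on the log2 scale on its lead probe set (SE 0.15, limma adjusted p = 3.32e-04) and by 0.59 on its second (SE 0.09, adjusted p = 8.75e-06), in 16 of 16 animals on each. The second probe set of Fam32a was higher in midbrain by 0.16 (limma adjusted p = 0.0241), also in 16 of 16 animals. Within array codes it had 0.17 in each and did not pass (limma adjusted p 0.0890 in the middle code and 0.160 in the highest).

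With the animal as a block, 11 of the 23 were called (47.8%, against a background of 27.1%), 5 higher and 6 lower in midbrain. The genes were chosen for agreement within an animal, which makes their blocked errors small, so nothing is read from this share. For the same reason the blocked p-values of single genes are not given. The sizes of the differences do not depend on the block, and without it no lead probe set other than that of Sfxn1 passed (limma adjusted p 0.274 or more). As a description, the log2 difference of midbrain over medulla was -0.40 for Cap1 and -0.20 for H1f2, each negative in 16 of 16 animals. It was -0.26 for Nfia, negative in 15 of 16, and -0.16 for Pygb, negative in 14 of 16. Vldlr had 0.17, positive in 15 of 16 animals, and Gnb1 -0.11, negative in 12 of 16. The differences were -0.02 for Prdx2, -0.18 for Gdpd3 and 0.09 for Fam32a on their lead probe sets. Beside the widest gap between animals these regional differences were small. For Cap1 the widest gap between animals was 1.76 and the regional difference 0.40 in size, and for Nfia 1.17 and 0.26. Sfxn1 was the 1 gene of the 10 whose regional difference exceeded its widest gap (0.38). For Vldlr and H1f2 the widest gap sets only 1 animal apart, control sham 1 and KO sham 2. Their second gaps, 0.04 and 0.12, were smaller than their regional differences of 0.17 and 0.20 in size.

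**Figure D5:**
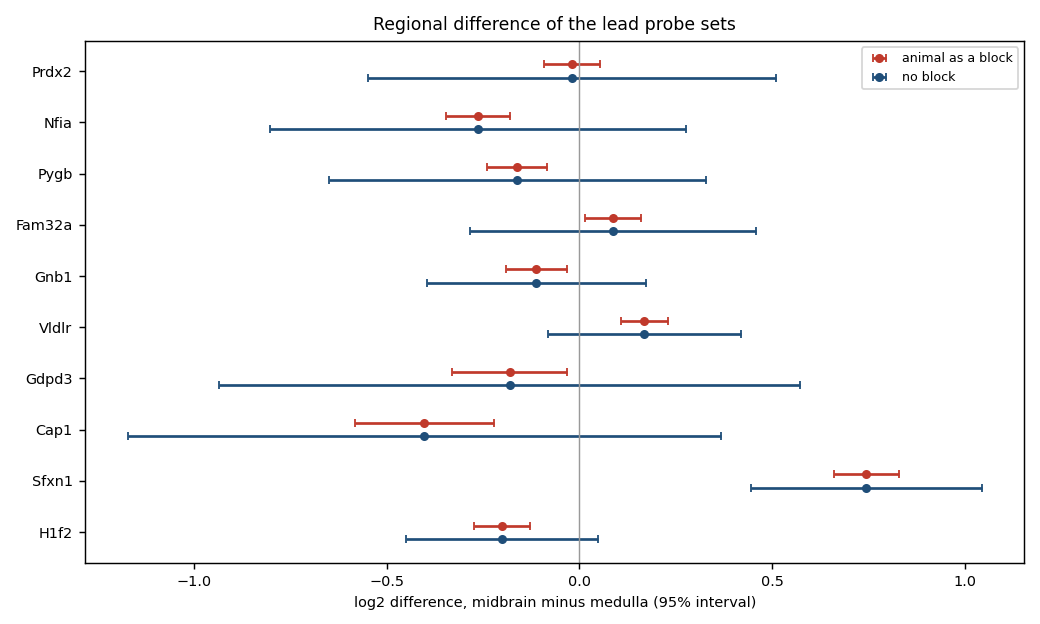
Log2 difference of midbrain minus medulla (x axis) with 95% intervals for the lead probe set of each gene, with the animal as a block in red and without it in blue. The choice of genes makes the blocked intervals narrow, so nothing is read from them. Without the block, Sfxn1 stands at 0.74, clear of 0, while the intervals of the other 9 genes all include 0.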

How the data were processed

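The authors deposited 1 background-subtracted intensity per probe set and array on a linear scale; this unit was read from the values, and no label or header names the software behind them. Per the labels' protocols, cRNA was made from 4 ug of total RNA. Negative values (2.15% of all lay at or below 0) were floored at 0. The log2 of the deposited values plus 16 was then quantile-normalized. The 64 AFFX probe sets were left out and 22626 kept, of which 20380 carried 1 gene symbol, 691 several and 1555 none. Levels printed in units are the deposited intensities.

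limma 3.58.1 in R 4.3.3 (lmFit, eBayes) fitted 4 group means to the 16 arrays of a region, or 8 to all 32. The number of arrays limits the precision. Per the series' design, each group holds 4 mice and each mouse gave both regions. The p-values of fits within a region therefore measure the spread between mice. The unblocked fit of midbrain against medulla takes both arrays of a mouse as independent, so its p-values ignore the pairing. Which arrays share a mouse was read from consecutive array numbers. Paired this way, 10 of 16 pairs had an r over 0.1 across probe sets. For KO sham 3 and 4 the mean r was 0.155 by array number and -0.065 by title number.

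The 10 genes and all lists were chosen with earlier results of these data known. All 10 are named on every probe set annotated to them alone; the lead is the probe set with the highest pairing, and the 3 genes most like it are named, with the most opposite gene and neighbours past an r of 0.6 added after seeing values. Chromosomes and gene order came from RefSeq (GRCm38.p6), with 12369 genes placed; the files name no build, so no coordinates are given. On simulated data with 22626 probe sets the genotype fit recovered 39 of 50 changes of 0.5 and 49 of 50 of 1 on the log2 scale in each region, with 10 false calls in medulla and 5 in midbrain. The changes were planted in randomly drawn brighter probe sets, with normal noise at the spread of each. The lead probe sets vary far more, with an SD between animals of 0.36 to 1.11 against a median of 0.16 over all. The recovered shares therefore do not apply to the 10 genes.

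Alternatives were median centring, a constant of 1 or 64, a filter on dim probe sets and a trended robust variance. The title number, the animal or the array code served as a block. Fits within an array code, other pairings of KO sham 3 and 4, and levels in place of deviations were also run. Each array or animal was omitted in turn. The midbrain arrays titled KO sham 2 and 4 were omitted together, and the one titled 4 belongs to KO sham 3 as animals are named here.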

Additional observations from a re-analysis of the deposited data

Results flagged for a closer look

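In groups of 4 animals, a single sample counted as far from the others when its gap to the nearest of them took up more of the group's whole range, on the log2 scale, than Dixon's 95% limit. This was so in 23 of 80 combinations of gene, group and region, over 9 animals, where chance gives about 1 in 20. The genes were chosen in a way that favours such spread, so the number is a description.

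KO CCI 1 was lowest for Prdx2 (share of the range 0.902 in midbrain, 0.892 in medulla) and Pygb (0.859 in midbrain, 0.921 in medulla), and highest for Gnb1 (0.887 in midbrain, 0.882 in medulla). Control sham 3 was highest for Fam32a (0.898 in midbrain, 0.932 in medulla) and, in medulla, for Gnb1 (0.874). Control CCI 2 was highest for Gnb1 (0.882 in midbrain, 0.922 in medulla). Control sham 1 was lowest for Vldlr (0.889 in midbrain, 0.832 in medulla). KO sham 4 was lowest for Gdpd3 (0.917 in midbrain, 0.970 in medulla), and control sham 2 was highest for it in medulla (0.935). Control CCI 1 was highest for Cap1 (0.902 in midbrain, 0.913 in medulla) and for Gdpd3 (1.0 in midbrain, 0.887 in medulla), although the Gdpd3 levels of that group, at most 15.7 units, are near background. In midbrain, KO CCI 3 was lowest for Nfia (0.923), control sham 2 lowest for Pygb (0.873) and KO sham 2 highest for Cap1 (0.884).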

How the results depend on the processing

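The counts of called probe sets of the 10 genes stayed at 0 of 23 for genotype, CCI and their interaction under each alternative that kept all arrays of a fit, including the title number as a replicate block, which called 0 in each of these 8 comparisons. Leaving out 1 array gave 0 to 1 for genotype in medulla and 0 to 1 in midbrain; in both, the call was Gdpd3 without the array of KO sham 4. For midbrain against medulla, 3 probe sets were called, 6 with the array code as a block and 11 with the animal as a replicate block. Leaving out 1 array gave 3 to 5 there, the 5 without the midbrain array of control sham 1, which added both bright Vldlr probe sets. Omitting the midbrain array of KO sham 2 called the lead probe set of H1f2 (-0.28, limma adjusted p = 0.0370). No value changed its sign past the threshold. Median pairing of the 10 genes lay between 0.964 (KO sham 3 and 4 paired by title number) and 0.984 over all alternatives. Same-numbered arrays of different groups correlated at 0.042 in medulla and 0.066 in midbrain, other numbers at -0.014 and -0.022. Title numbers 1 and 2 have the middle array code, except control sham 1, and numbers 3 and 4 the highest. The title number thus carries the code, and whether it pairs arrays between groups was not tested. Dim probe sets such as those of Gdpd3 in control animals are limited by background.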
